A study of Mus musculus with 4 samples.

Results

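The clustered protocadherin genes are described here in RNA of cells sorted as cortical astrocytes, from controls and from mice with lowered Ezh2 RNA. The genes were taken by name and biotype. Of the 29224 genes deposited, 54 were annotated as protein coding and named Pcdha, Pcdhb or Pcdhg. The alpha cluster held 12 of them, the beta cluster 22 and the gamma cluster 20. RNA was sequenced from cerebral cortex cells of P5 mice, isolated by magnetic sorting for GLAST, a glutamate transporter of the astrocyte surface. There were 2 libraries from Ezh2 f/f mice and 2 libraries from Ezh2 cKO mice. Both groups carry the floxed Ezh2 allele, which Cre expressed from the astrocyte gene Aldh1l1 deletes in the Ezh2 cKO mice, so cells that do not use this promoter keep the gene. The strain of these 4 libraries, and whether each came from a separate or a pooled set of animals, are not given in the labels, so the p-values measure only the spread between these libraries, which may be technical.

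Protocadherins are cadherin-like proteins of the cell surface that bind identical molecules on neighbouring cells. In the alpha and gamma clusters each gene supplies its own large variable exon, which carries the extracellular part, and splices it to constant exons that the whole cluster shares, whereas each beta gene encodes a complete protein. Neurons use different random sets of these promoters, which gives a cell a surface identity, while the C-type isoforms at the end of the alpha and gamma clusters are used more uniformly. Gamma protocadherins are also known in astrocytes, where they act in contacts with neurons and in synapse formation. EZH2 is the methyltransferase that places the repressive mark H3K27me3.

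Ezh2, the targeted gene, was counted 434 and 327 times in the Ezh2 f/f and 211 and 164 times in the Ezh2 cKO libraries. It fell by 1.11 on the log2 scale (SE 0.162, adjusted p = 3.26e-05 in edgeR's quasi-likelihood test), and the groups did not overlap. A fold change is Ezh2 cKO over Ezh2 f/f throughout, and adjusted p-values are over the 16793 genes tested. Below, the Ezh2 f/f libraries are called controls and the Ezh2 cKO libraries cKO.

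The libraries held between 16273308 and 17522152 counts, and the 54 genes took 5915 and 4811 of them in controls and 4189 and 4567 in cKO. A gene with 0 counts could still have an expected count of up to 3, which equals 0.170 to 0.191 CPM (counts scaled to library size with the TMM factors). A total of 52 genes passed the filter on low counts. Pcdha8, with 2 and 1 counts in controls and 3 and 3 in cKO, and Pcdhb1, with 1 and 0 and with 1 and 0, were not tested and no fold is given for them. Among the 52 tested, 37 had a higher CPM in control replicate 1 than in replicate 2 (71.2%, against 49.7% of all tested genes), and 14 had a higher CPM in cKO replicate 1 than in replicate 2 (26.9%, against 53.1%).

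All 54 genes lie on chromosome 18 on the plus strand. In the deposited coordinates, whose build the files do not name and which are not those of GRCm38, the alpha cluster runs from 37063237 to 37320714, the beta cluster from 37397991 to 37657532 and the gamma cluster from 37794846 to 37974926. In GENCODE M21 each alpha gene shares 2860 exon bases with others of its cluster and has a median of 2487 bases of its own. Each gamma gene shares between 2116 and 3157 bases and has a median of 2700 of its own. Beta genes share no exon bases, apart from 455 bases where Pcdhb21 and Pcdhb22 overlap. A median of 55.4% of the 100-base stretches of an alpha gene and 43.6% of those of a gamma gene also occur in another gene of the locus, against 0.207% for a beta gene. How reads of the constant exons were counted is not given in the sources used here. Pcdha8, which includes those exons, had no more than 3 counts in any library. The lowest count of any gamma gene was 41, 32, 30 and 36 in the 4 libraries. These counts set an upper limit on the constant-exon reads that can have been added to every gene of a cluster. For gamma genes with few counts this limit is not small beside the count, and it does not cover reads assigned unequally.

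**Figure D1:**
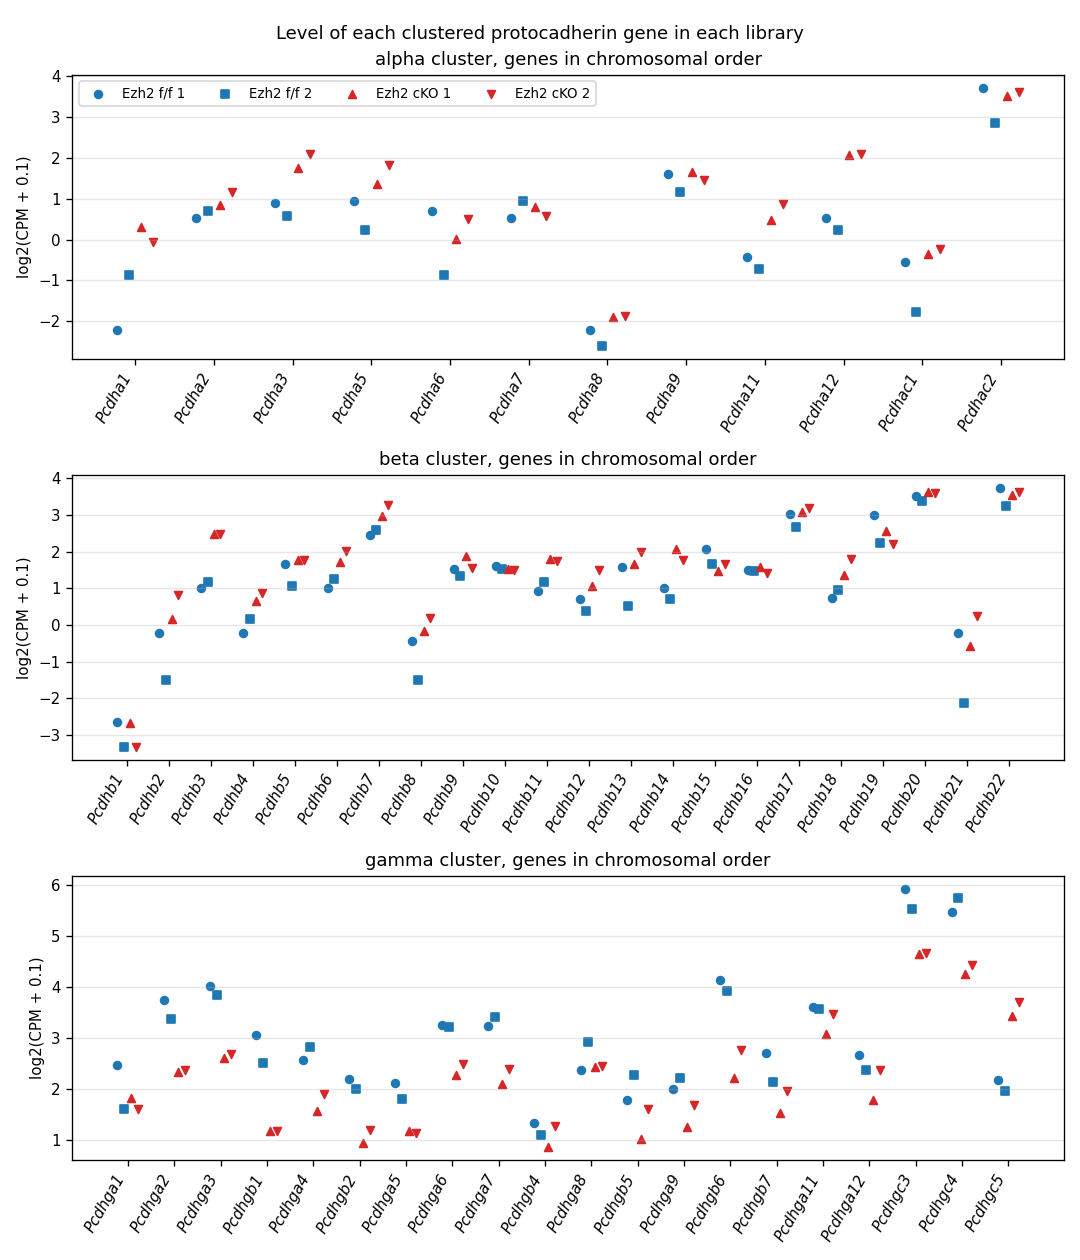
Level of each of the 54 genes in each library, on the log2(CPM + 0.1) scale, in chromosomal order along the x axis. Circles and squares are the Ezh2 f/f libraries and triangles the Ezh2 cKO libraries. Triangles sit above in much of the alpha cluster and early beta cluster, and below in most of the gamma cluster apart from Pcdhgc5.

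The median fold changes of the clusters differed in direction. Of the 11 alpha genes tested, 5 rose and 0 fell (edgeR adjusted p under 0.05), where 34.7% of all tested genes rose and 33.6% fell. Of the 21 beta genes tested, 7 rose and 0 fell. The share that rose was close to that of all genes in the beta cluster and not far above it in the alpha cluster. Of the 20 gamma genes tested, 1 rose and 14 fell. No alpha or beta gene fell at an unadjusted p under 0.05 or by DESeq2 or limma either. The median log2 fold change was 0.85 in the alpha, 0.71 in the beta and −0.85 in the gamma cluster, beside 0.02 over all tested genes. In bulk RNA of sorted cells, fewer cells of a type and less RNA per cell cannot be told apart.

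Changes of at least 2-fold were called in 5 alpha, 3 beta and 1 gamma genes that rose, where 19.0% of all tested genes did so, and in 8 gamma genes that fell, where 14.0% did so. Counting tested genes whose libraries did not overlap between groups in CPM, 7 of 11 alpha and 15 of 21 beta genes lay higher in both cKO libraries, against 42.8% of all tested genes. In the gamma cluster 16 of 20 lay lower in both, against 41.5%. The alpha and beta calls depended on the test and on single libraries. DESeq2 called 2 alpha and 2 beta genes higher, and edgeR called fewer of both when some single libraries were left out. Why calls were lost was not tested. The gamma count of fallen genes lay between 10 and 14 when any library was left out, and DESeq2 gave 10. Limma on unfiltered log2(FPKM + 1), where the added 1 shrinks the fold changes of low genes, called 2 alpha and 1 beta genes higher and 1 gamma gene higher and 8 lower, and calls lost there are not repeated gene by gene below.

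**Figure D2:**
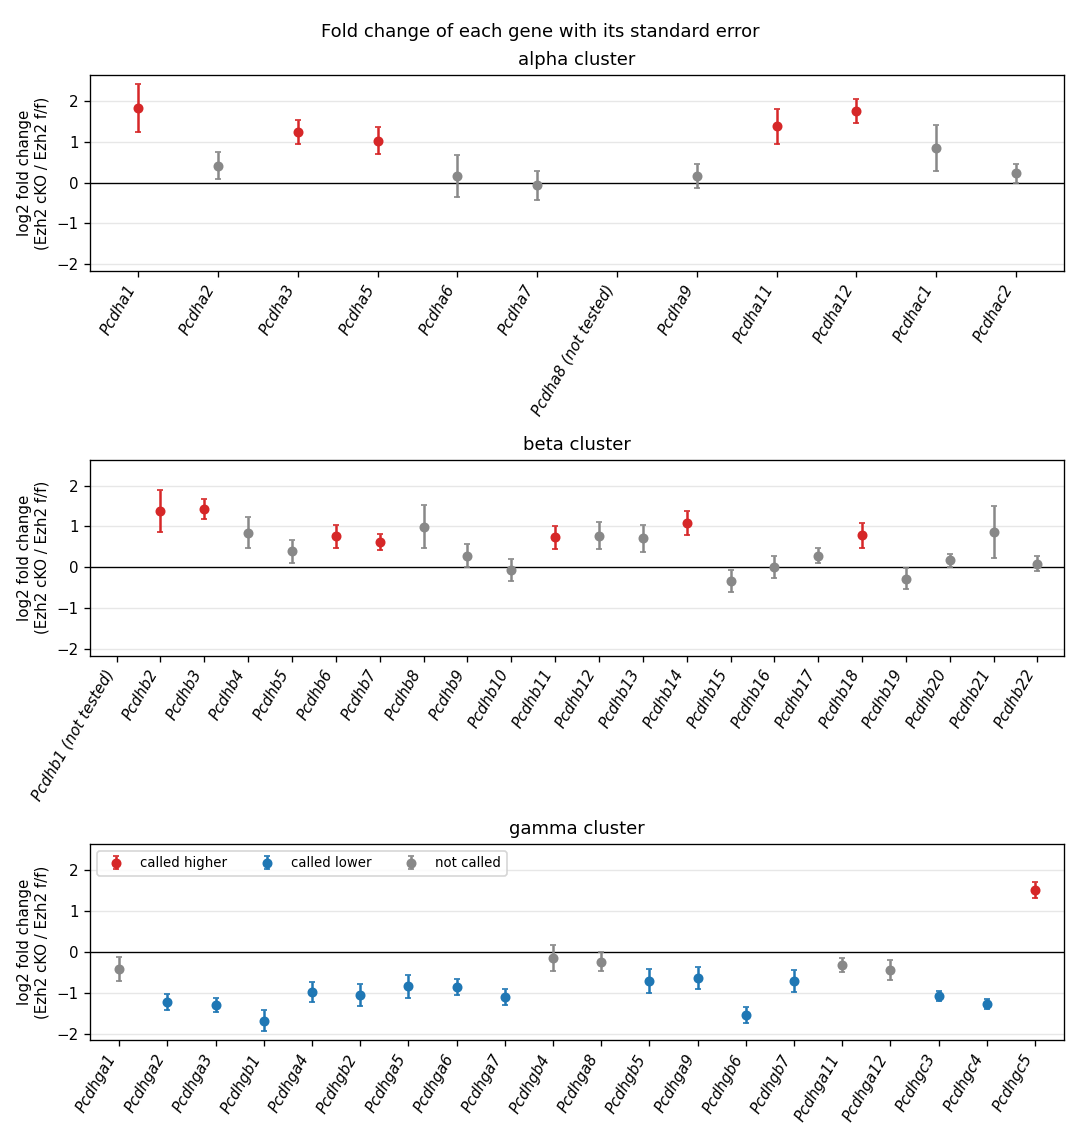
Log2 fold change, Ezh2 cKO over Ezh2 f/f, of each gene in chromosomal order, with its standard error from edgeR as bars. Red points were called higher, blue points lower and grey points not called; Pcdha8 and Pcdhb1 were not tested. The gamma points lie below 0 except Pcdhgc5 at 1.53.

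Markers of several cell types moved between the groups as well, and their part in the protocadherin results was not tested. The marker counts below stand beside 34.7% of all tested genes that rose and 33.6% that fell. Of 12 astrocyte markers 10 rose and 0 fell, with a summed level of 507 to 521 CPM in controls and 2659 to 2906 in cKO, while Aldh1l1 had 1285 and 1250 against 1280 and 1155 counts and was not called. Of 13 neuron markers 10 rose and 1 fell, with 6342 to 6671 CPM in controls and 8967 to 9074 in cKO, so neuronal RNA was present in every library. Per length, the neuronal tubulin Tubb3, the 1 neuron marker that fell, had 1859 and 1897 FPKM (counts scaled to gene length and library size) in controls and 1223 and 1207 FPKM in cKO. Syt1, a synaptic vesicle protein and 1 of the 10 that rose, had 14.7 and 15.6 FPKM in controls and 95.0 and 100.3 FPKM in cKO. The astrocyte filament Gfap had 9.55 and 8.81 FPKM in controls and 145 and 120 FPKM in cKO. By these markers neither group held astrocyte RNA alone. All 6 oligodendrocyte precursor markers rose (182 to 184 against 533 to 603 CPM), as did all 6 oligodendrocyte markers (62.4 to 68.9 against 579 to 671 CPM, with Mobp at 0 in control replicate 1) and all 8 microglia markers (99.3 to 99.5 against 252 to 301 CPM). Of 6 endothelial markers 1 rose and 1 fell (224 to 231 against 208 to 244 CPM). Of 5 tested choroid plexus markers 1 rose and 4 fell (396 to 772 against 7.03 to 8.31 CPM, with Ttr at 6326 and 11598 against 5 and 12 counts), and of 8 progenitor and cycling markers 1 rose and 7 fell (113 to 124 against 59.1 to 63.2 CPM).

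The gamma cluster held a larger share of the protocadherin counts than the alpha or the beta cluster in each library. It had 4129 and 3533 counts in the controls and 2061 and 2336 in the cKO libraries. Its summed level was 233 ± 11.96 CPM (SD, n = 2) in controls and 126 ± 12.7 CPM in cKO, which is 1.85-fold lower, a difference larger than the spread within either group. The beta cluster had 1331 and 997 counts in controls and 1564 and 1622 in cKO. Its summed level was 70.7 ± 10.2 CPM in controls and 91.2 ± 3.47 CPM in cKO, or 1.29-fold higher. The alpha cluster was the least counted, with 455 and 281 counts in controls and 564 and 609 in cKO. Its sums of 22.3 ± 6.19 and 33.6 ± 2.23 CPM differed 1.51-fold, with control replicate 2 well below replicate 1. With 2 libraries per group an exact permutation test cannot give a two-sided p below 0.333, so no p is given for sums. The log2 ratio of the alpha sums was 0.59, but 0.91 without control replicate 1 and 0.33 without control replicate 2, and that of the beta sums was 0.37, but 0.23 without control replicate 2.

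As a share of all protocadherin counts, the gamma cluster took 69.8% and 73.4% in the controls and 49.2% and 51.1% in the cKO libraries. The alpha and beta clusters together took 30.2% and 26.6% in controls and 50.8% and 48.9% in cKO. These shares do not depend on how libraries were scaled, and the groups did not overlap.

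**Figure D3:**
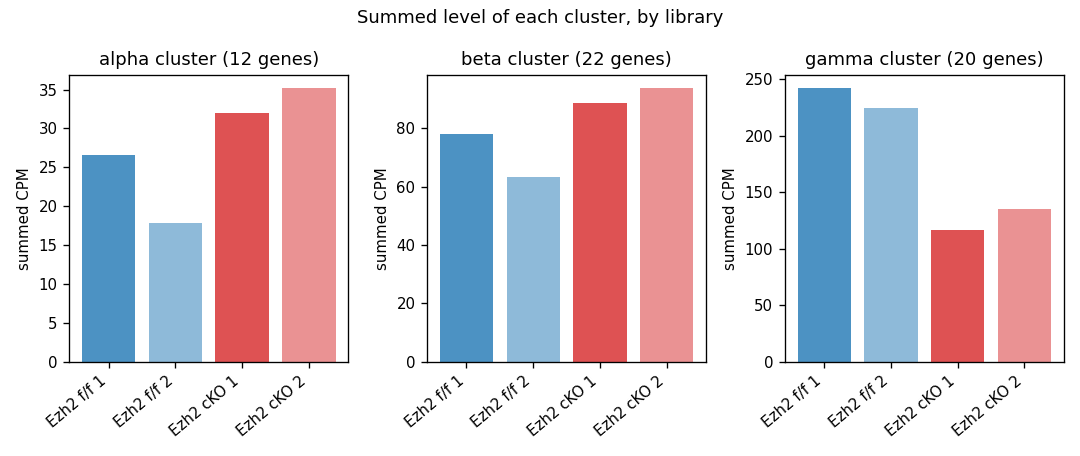
Summed CPM of the 12 alpha, 22 beta and 20 gamma genes in each library, with a separate y axis from 0 for each cluster. The gamma sums of both Ezh2 cKO libraries lie below those of both Ezh2 f/f libraries, and the alpha and beta sums lie above.

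The 3 C-type isoforms of the gamma cluster were among the genes with the smallest p-values, and they did not move in the same direction. Pcdhgc4, an isoform needed for the survival of neurons, had 750 and 844 counts in the controls and 335 and 373 in the cKO libraries. It fell by 1.27 on the log2 scale (SE 0.125, edgeR adjusted p = 7.23e-07). Pcdhgc3, which acts on dendrite branching in cortical neurons, had 1033 and 720 counts in controls and 440 and 439 in cKO. It fell by 1.08 (SE 0.128, edgeR adjusted p = 4.34e-06), and for both genes the controls differed from each other more than the cKO libraries did. Pcdhgc5, known at GABAergic synapses, went the other way, with 75 and 59 counts in controls and 188 and 223 in cKO. Its rise was 1.53 on the log2 scale (SE 0.197, edgeR adjusted p = 9.81e-06), or 2.88-fold. It was the single gamma gene that rose, and these 3 calls held in each of the 13 alternative fits.

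The ratio of C-type isoforms within a library shows this without any scaling between libraries. Pcdhgc3 had 13.8 and 12.2 times the counts of Pcdhgc5 in the controls and 2.34 and 1.97 times in the cKO libraries. Pcdhgc4 had 10.0 and 14.3 times the counts of Pcdhgc5 in controls and 1.78 and 1.67 times in cKO. Between Pcdhgc4 and Pcdhgc3 the ratio was 0.726 and 1.17 in controls and 0.761 and 0.850 in cKO, so these neighbours overlapped between groups. Pcdhgc5 made up 1.82% and 1.67% of the gamma counts in controls and 9.12% and 9.55% in cKO.

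Per length, Pcdhgc3 and Pcdhgc4 stood above every other clustered protocadherin in both groups. On CPM per kilobase of unshared exon, Pcdhgc3 had a mean of 15.7 in controls and 7.44 in cKO, and Pcdhgc4 had 14.04 and 5.83. The next level in controls was that of Pcdhgb6, at 6.35, and in cKO that of Pcdhac2, at 3.92. The deposited FPKM values, which divide by the shared exons too, gave the same first and second genes, with Pcdhgc3 at 9.38 and 4.70 FPKM and Pcdhgc4 at 8.46 and 3.73 FPKM.

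**Figure D4:**
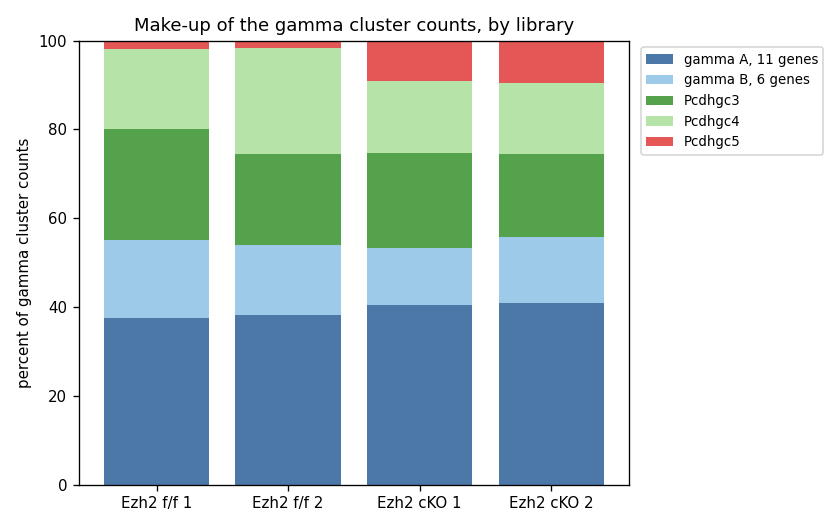
Share of gamma cluster counts, in percent, taken by the 11 gamma A genes, the 6 gamma B genes and the C-type isoforms Pcdhgc3, Pcdhgc4 and Pcdhgc5 in each library. The Pcdhgc5 segment at the top grows from 1.82% and 1.67% in Ezh2 f/f to 9.12% and 9.55% in Ezh2 cKO.

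Gamma A genes fell or did not pass the test. Of 11 tested, 7 fell and 0 rose, where 33.6% of all tested genes fell and 34.7% rose. At an unadjusted p under 0.05, or by DESeq2 or limma, 0 rose either. The median log2 fold change was −0.84. Pcdhga3 had 275 and 222 counts in controls and 105 and 109 in cKO. It fell by 1.30 (SE 0.169, edgeR adjusted p = 1.03e-05), the smallest p of this group. Pcdhga2 had 225 and 160 counts against 87 and 88 (log2 fold change −1.22, SE 0.193, edgeR adjusted p = 6.62e-05). Pcdhga7 had 158 and 166 against 73 and 89 counts, with a log2 fold change of −1.09 (SE 0.198, edgeR adjusted p = 0.000225). In each of these genes both cKO libraries were below both control libraries. Pcdhga4, Pcdhga5, Pcdhga6 and Pcdhga9 fell by less, with log2 fold changes of −0.97, −0.84, −0.86 and −0.64. The call on Pcdhga9 was lost by DESeq2, with no filter, with scaling by library totals, and without control replicate 2 or either cKO library (edgeR adjusted p up to 0.275 over the alternatives), and that on Pcdhga5 by DESeq2 and without control replicate 1 or either cKO library (up to 0.110).

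Pcdhga11 was among the most counted gamma A genes, with 207 and 185 counts in controls and 147 and 190 in cKO. Its log2 fold change was −0.31 (SE 0.175, edgeR adjusted p = 0.133). Both of its cKO levels lay below the control levels in CPM, but cKO replicate 2, at 10.97 CPM, was near control replicate 2, at 11.8 CPM. The other gamma A genes that were not called had log2 fold changes of −0.41 (Pcdhga1), −0.23 (Pcdhga8) and −0.43 (Pcdhga12). Pcdhga1 had 93 and 46 counts in controls against 60 and 51 in cKO. Its control libraries lay on either side of the cKO ones, and without control replicate 2 its log2 fold change was −0.79 (edgeR adjusted p = 0.00859), whereas without control replicate 1 it was 0.12 (edgeR adjusted p = 0.773).

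Gamma B genes, interleaved with gamma A along the chromosome, fell as well. Of 6 tested, 5 fell and 0 rose, beside the same 33.6% and 34.7% of all tested genes. At an unadjusted p under 0.05, or by DESeq2 or limma, 0 rose either. The median log2 fold change was −0.89. Pcdhgb6, the most counted of them, had 299 and 237 counts in controls and 80 and 115 in cKO. Its fall was 2.92-fold, a log2 fold change of −1.54 (SE 0.195, edgeR adjusted p = 8.17e-06). Pcdhgb1 had the largest fall of the gamma cluster, from 140 and 87 counts to 38 and 37 (log2 fold change −1.68, SE 0.263, edgeR adjusted p = 6.09e-05). The groups did not overlap for either gene, and for Pcdhgb1 the controls, at 8.20 and 5.54 CPM, differed from each other more than the cKO libraries, at 2.16 and 2.14 CPM. Pcdhgb2 had 76 and 61 counts against 32 and 38 (log2 fold change −1.06, SE 0.268, edgeR adjusted p = 0.00309). Pcdhgb7 had 110 and 67 counts against 49 and 65, with a log2 fold change of −0.72 (SE 0.267, edgeR adjusted p = 0.0283). The Pcdhgb7 call was lost by DESeq2, with scaling by library totals, without control replicate 1 and without either cKO library (adjusted p up to 0.277). Pcdhgb5 had 57 and 74 counts against 34 and 51 and a log2 fold change of −0.72, and its call was lost by DESeq2, with no filter, with scaling by library totals, and without control replicate 2 or cKO replicate 1. Pcdhgb4 was the gamma B gene not called, with 41 and 32 against 30 and 40 counts and overlapping groups.

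Within the cluster the share of gamma A lay higher in both cKO libraries, and that of gamma B slightly lower. Gamma A genes took 37.5% and 38.3% of the gamma counts in controls and 40.5% and 40.9% in cKO. Gamma B genes took 17.5% and 15.8% in controls and 12.8% and 14.8% in cKO. In neither did the groups overlap, but for gamma B the gap between groups was smaller than the difference within either group. Together they took 55.0% and 54.1% of the gamma counts in controls and 53.3% and 55.7% in cKO, and the groups overlapped. Pcdhgc3 and Pcdhgc4 together took 43.2% and 44.3% in controls and 37.6% and 34.8% in cKO.

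Alpha genes rose or did not pass the test. Pcdha12 had 23 and 17 counts in controls and 73 and 72 in cKO. It rose 3.39-fold, a log2 fold change of 1.76 (SE 0.293, edgeR adjusted p = 0.000105). Pcdha3 had 30 and 22 counts against 58 and 73 (log2 fold change 1.24, SE 0.296, edgeR adjusted p = 0.00195). The groups did not overlap for either gene, and both calls held in each of the 10 alternatives that tested them. Pcdha11 had 11 and 8 counts against 23 and 30 (log2 fold change 1.38, SE 0.424, edgeR adjusted p = 0.0103), and its call was lost by DESeq2 and without control replicate 2 or cKO replicate 2 (adjusted p up to 0.129). Pcdha1 had 2 and 7 counts in controls and 20 and 15 in cKO, with a log2 fold change of 1.83. Its call was lost by DESeq2 and without control replicate 1 or either cKO library, and the gene had few reads. Pcdha5 had 31 and 17 counts against 44 and 60, with a log2 fold change of 1.03, and its call was lost by DESeq2 and without control replicate 2 or cKO replicate 2.

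Among the alpha genes not called, Pcdha9 had 50 and 34 counts in controls and 54 and 46 in cKO (log2 fold change 0.16, SE 0.284, edgeR adjusted p = 0.626). Pcdha7 had 23 and 29 against 29 and 24 counts (log2 fold change −0.07, SE 0.350, edgeR adjusted p = 0.870), the single alpha value below 0. Both genes overlapped between groups. Pcdha2 had a log2 fold change of 0.42 and Pcdha6 one of 0.16, neither called.

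Neither C-type isoform of the alpha cluster was called. Pcdhac2, which serotonergic axons use to spread over their target territory, had 224 and 112 counts in controls and 202 and 213 in cKO. Its log2 fold change was 0.22 (SE 0.227, edgeR adjusted p = 0.393). The control libraries lay on either side of the cKO ones: without control replicate 1 the log2 fold change was 0.74 (edgeR adjusted p = 0.00157), and without control replicate 2 it was −0.16. Pcdhac1 had 10 and 3 counts against 12 and 13 (log2 fold change 0.85, SE 0.572, edgeR adjusted p = 0.204), and was barely detected. Pcdhac2 alone gave 49.2% and 39.9% of the alpha counts in controls and 35.8% and 35.0% in cKO. Without the C-type isoforms, the 10 other alpha genes summed to 11.8 ± 1.68 CPM (SD, n = 2) in controls and 20.98 ± 1.59 CPM in cKO, 1.79-fold higher.

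The 3 beta genes with the highest mean CPM were not among those that rose. Pcdhb3 had 33 and 34 counts in controls and 97 and 95 in cKO. It rose 2.68-fold, a log2 fold change of 1.42 (SE 0.248, edgeR adjusted p = 0.000159), the smallest p of the cluster, and its call held in each of the 13 alternative fits. Pcdhb14 had 33 and 24 counts against 72 and 57 (log2 fold change 1.09, SE 0.290, edgeR adjusted p = 0.00426), and its call was lost without cKO replicate 1 (adjusted p 0.0700). Pcdhb7 had 92 and 93 counts against 136 and 167 (log2 fold change 0.62, SE 0.197, edgeR adjusted p = 0.0126), and its call was lost by DESeq2 and without cKO replicate 2. The groups did not overlap for any of these 3 genes. Pcdhb2, Pcdhb6, Pcdhb11 and Pcdhb18 also rose, with log2 fold changes of 1.37, 0.76, 0.74 and 0.78, but DESeq2 called none of these 4. In edgeR each lost its call without either cKO library. Pcdhb2 also lost it without control replicate 2, and Pcdhb6, Pcdhb11 and Pcdhb18 without control replicate 1.

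Pcdhb22 had 225 and 147 counts in controls and 206 and 214 in cKO (log2 fold change 0.09, SE 0.181, edgeR adjusted p = 0.672). Pcdhb20 had 193 and 161 counts against 216 and 209 (log2 fold change 0.17, SE 0.158, edgeR adjusted p = 0.343). Pcdhb17 had 137 and 98 against 149 and 156 counts (log2 fold change 0.29, SE 0.190, edgeR adjusted p = 0.191). These most counted beta genes differed between groups by less than 2 standard errors. Per length the most abundant was Pcdhb20, at 3.03 CPM per kilobase of unshared exon in controls and 3.42 in cKO. Pcdhb22 overlaps Pcdhb21, which had 13 and 2 counts against 10 and 19, so reads in the overlap cannot be assigned with certainty.

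Only 3 beta genes had a log2 fold change below 0, and none of them was called. Pcdhb15 had 70 and 48 counts in controls and 47 and 53 in cKO (log2 fold change −0.32, SE 0.267, edgeR adjusted p = 0.293). Pcdhb19 had 134 and 72 against 102 and 78 counts (log2 fold change −0.28, SE 0.259, edgeR adjusted p = 0.355), and without control replicate 2 it was called lower (−0.62, edgeR adjusted p = 0.0152). Pcdhb10 had 50 and 44 against 49 and 47 counts (log2 fold change −0.06, SE 0.266, edgeR adjusted p = 0.850). The remaining 8 tested beta genes not called had log2 fold changes from 0.02 in Pcdhb16 to 1.00 in Pcdhb8. Along the chromosome the earlier beta genes tended to have larger fold changes, with a Spearman correlation of −0.47 between start position and log2 fold change over the 21 tested genes. It was −0.18 over 11 alpha and 0.31 over 20 gamma genes, and these are descriptions, since all points come from the same 4 libraries. The most counted beta genes, Pcdhb17, Pcdhb20 and Pcdhb22, lie late in the cluster, so position was not separated from level.

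How evenly a cluster's counts were spread over its genes was described by the effective number of isoforms, the exponential of the Shannon entropy of the shares, which equals the number of genes when all are counted alike. In the gamma cluster it was 12.6 and 12.5 in the controls and 13.9 and 14.5 in the cKO libraries. In the beta cluster it was 14.8 and 14.7 in controls and 16.3 and 16.6 in cKO. In the alpha cluster it was 5.999 and 7.09 in controls and 7.83 and 7.90 in cKO. It was higher in both cKO libraries in each cluster. Without the C-type isoforms the differences were smaller. The other alpha genes then had 7.97 and 8.07 in controls and 8.29 and 8.23 in cKO. Gamma A and B genes had 14.69 and 14.75 in controls and 15.30 and 15.22 in cKO. Over all 54 genes together it was 27.1 and 25.6 in controls and 36.6 and 37.4 in cKO, a value that also depends on the share of each cluster.

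Of 28 tested protein-coding genes between the clusters or within 500 kb of them, 11 rose and 11 fell, with a median log2 fold change of 0.01, where 34.7% of all tested genes rose and 33.6% fell. Both counts lay near that background. Taf7, a subunit of the general transcription factor TFIID that lies between the beta and gamma clusters, had 222 and 166 counts in controls and 118 and 131 in cKO (log2 fold change −0.73, edgeR adjusted p = 0.00258). Diaph1, a formin that nucleates actin and the first gene past the gamma cluster, had 1219 and 1108 against 785 and 826 counts (log2 fold change −0.62, edgeR adjusted p = 3.32e-05). Pcdh1, a protocadherin outside the clusters but on the same side, had 1131 and 1050 against 4619 and 4259 counts (log2 fold change 1.93, edgeR adjusted p = 6.89e-10). Pcdhgb8, which is annotated as a polymorphic pseudogene and was therefore not counted among the 54, had 84 and 60 against 61 and 61 counts and was not called.

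Of the non-coding genes on the minus strand inside the clusters, BC037039 overlaps the start of Pcdhgc3. It had 43 and 56 counts in controls and 14 and 13 in cKO and fell by 1.96 (edgeR adjusted p = 0.000212). Gm10544, inside the alpha cluster, had 26 and 11 against 4 and 5 counts (log2 fold change −2.09, edgeR adjusted p = 0.00521), opposite in sign to most alpha genes. The use of strand in counting is not given in the sources used here, so reads of these transcripts and of the protocadherins across from them cannot be told apart. BC037039 had at most 56 counts beside 439 to 1033 of Pcdhgc3. How reads over 2 genes were counted is not given either, so this sets no limit on reads of BC037039 within Pcdhgc3.

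Regulators known to act on these promoters mostly fell. CTCF and the cohesin ring fold the clusters so that distant enhancers reach a chosen promoter, while DNA methylation and SETDB1 with its cofactor TRIM28 keep other promoters silent. Of 25 such genes tested, 3 rose and 19 fell, with a median log2 fold change of −0.65 (background 34.7% and 33.6%). Trim28 had 13646 and 12423 counts in controls and 3916 and 3746 in cKO (log2 fold change −1.86, edgeR adjusted p = 3.47e-10). Ctcf had 1345 and 997 against 563 and 611 counts (log2 fold change −1.08, edgeR adjusted p = 1.33e-06). Both were lower in each cKO library than in either Ezh2 f/f library. The cohesin subunits Smc3, Rad21 and Smc1a had log2 fold changes of −1.07, −0.73 and −0.43, each called, while Stag2 (0.04) was not. Zfp143, a zinc finger factor found at CTCF-anchored promoters, had −1.43, and Setdb1 had −0.83. Smchd1, which silences clustered genes, had −0.72.

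DNA methylation genes split. Dnmt3b, which methylates protocadherin promoters in the early embryo, had 66 and 53 against 25 and 30 counts (log2 fold change −1.20, edgeR adjusted p = 0.00217). Dnmt1, the maintenance enzyme, had a log2 fold change of −0.94. Dnmt3a, the main de novo enzyme of postnatal brain, rose instead, from 2231 and 2109 to 4100 and 4163 counts (log2 fold change 0.84, edgeR adjusted p = 1.13e-06). Tet1 and the cohesin regulator Pds5b were the other genes of the list that rose (0.71 and 0.89), while the relatives of Tet1, Tet2 and Tet3, fell (−1.11 and −0.94).

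Partners of protocadherins at the membrane and in the cell went both ways, with 8 of 21 higher and 5 of 21 lower and a median log2 fold change of 0.14, not far from the 34.7% and 33.6% of all tested genes. Ptk2b, which encodes PYK2, a kinase that protocadherins bind and inhibit, had 810 and 591 counts in controls and 3517 and 3672 in cKO (log2 fold change 2.27, edgeR adjusted p = 1.18e-09). Its relative Ptk2, which encodes FAK, had −0.47. Axin1, a Wnt pathway scaffold that the Pcdhgc3 protein binds, had 3072 and 2766 against 753 and 677 counts (log2 fold change −2.12, edgeR adjusted p = 5.51e-10). Prkca, a protein kinase C that phosphorylates the shared gamma tail, had a log2 fold change of 1.06, and Nckap1, a member of the WAVE complex that alpha protocadherins recruit, had 0.70. Of the neuroligins, Nlgn1 rose (0.70) and Nlgn2 fell (−0.46).

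Protocadherins outside the clusters, which are single genes with their own promoters, were tested too. Of 12, 6 rose and 2 fell, with a median log2 fold change of 0.70 (background 34.7% and 33.6%). Pcdh9 had 371 and 358 counts in controls and 796 and 894 in cKO (log2 fold change 1.12, edgeR adjusted p = 8.24e-07), while Pcdh8 had 1277 and 952 against 476 and 508 (log2 fold change −1.27, edgeR adjusted p = 3.03e-07). Pcdh18 also fell (−1.04), and Pcdh10, Pcdh12, Pcdh17 and Pcdh19 were not called, at −0.07, 0.52, 0.12 and −0.07. Of 23 other cadherin family genes, 10 rose and 7 fell, with a median log2 fold change of −0.02, again not far from the 34.7% and 33.6% of all tested genes. Those that fell most were Celsr1 (−2.61), Dchs1 (−2.59) and Cdh4 (−1.99).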

How the data were processed

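The RNA-seq libraries of 2 Ezh2 f/f and 2 Ezh2 cKO samples were grouped by the GEO titles. The authors deposited, for each gene, read counts without normalisation, and FPKM values. The submitters' processing notes name Bowtie2 2.2.3, TopHat2 2.0.12, HTSeq 0.6.0 and the build mm9, without their roles; the build of the deposited positions is not named in the files, none of the 54 genes has its GENCODE M21 position, and positions were not converted. The deposited FPKM equal the count divided by gene length and library total, with a length equal to the M21 exon length for 54 of 54 genes. Sample columns left out numbered 0. The authors' own comparison columns (a mean, ratios and p-values) were not used.

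Counts of all 29224 genes were filtered with filterByExpr and scaled by TMM (factors 0.976, 0.967, 1.019 and 1.040), and tested with edgeR's quasi-likelihood test with the group as the only term, with Benjamini-Hochberg adjustment over 16793 genes (threshold 0.05; common biological coefficient of variation 0.0953). The SE is the log2 fold change divided by the root of F. CPM use TMM-scaled library sizes. Tests were checked on simulated data with known changes. Library totals were 16273308 to 17522152 counts, and the floor of 3 counts covers counting error only. Replicates differed beyond sampling noise (chi-square over degrees of freedom 6.47 and 4.28). The study's methods state no test for counts. Members and gene lists were chosen with earlier results of these data known. Values per library are given for the 5 C-type isoforms and, in each of the alpha, beta, gamma A and gamma B groups, the 3 genes with the highest mean CPM and the 3 with the smallest p in each direction; other members are given by their values or counts, and of other lists up to 6 genes with the smallest p and those with a described role are named. Neighbours are genes within 500 kb. Fits were made in R 4.3.3 (DESeq2 1.42.0, edgeR 4.0.16, limma 3.58.1) and tables in Python 3.11.15 (pandas 2.3.3, numpy 2.4.6).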

Additional observations from a re-analysis of the deposited data

How the results depend on the processing

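With 13 alternative fits, the gamma cluster kept 1 gene higher in each, and its fallen genes numbered 10 to 14 except 8 in each limma fit (FPKM + 1, FPKM + 0.1, and FPKM + 1 with no filter). Alpha genes called higher numbered 0 with a mean of at least 50 counts and in both filtered limma fits, in which 1 alpha gene was tested, and 2 with DESeq2 and unfiltered limma. Beta genes called higher numbered 2 with the 50-count filter, DESeq2 and both filtered limma fits, and 1 with unfiltered limma. Leaving out a library gave 2 to 5 alpha and 2 to 7 beta genes higher and 0 to 1 beta genes lower. With the 50-count filter and in both filtered limma fits, the 1 alpha gene tested was Pcdhac2. Its log2 fold changes were 0.26 with the 50-count filter, 0.23 with FPKM + 1 and 0.36 with FPKM + 0.1. In unfiltered limma the median log2 fold change was 0.15 in the alpha, 0.23 in the beta and −0.33 in the gamma cluster. The beta median was 0.21 with the 50-count filter and 0.22 and 0.31 in filtered limma on FPKM + 1 and FPKM + 0.1. These filters drop low genes, and the pseudocount shrinks the fold changes of low genes. Their part in these medians was not tested. Without a library, the alpha median ranged from 0.49 to 1.31 and the beta median from 0.26 to 0.77. No cluster median changed sign, though the alpha value rested on Pcdhac2 alone in the fits that tested 1 alpha gene. Signs changed in genes that were not called: Pcdha7 (0.014 with library totals, 0.00248 in unfiltered limma, −0.28 to 0.15 without a library) and Pcdhb10 (0.022 and 0.011). Without a library Pcdha6 ranged from −0.46 to 1.31, Pcdha9 from −0.049 to 0.40, Pcdhac2 from −0.16 to 0.74, Pcdhb16 from −0.062 to 0.096, Pcdhb19 from −0.62 to 0.17, Pcdhb22 from −0.15 to 0.36, Pcdhga1 from −0.79 to 0.12, Pcdhga8 from −0.49 to 0.056 and Pcdhgb4 from −0.38 to 0.057. For these the cause was not tested. Ezh2 stayed lower in each fit. Partners called higher numbered 5 in unfiltered limma. Of endothelial markers 0 were higher in unfiltered limma, and 0 were lower in each alternative except DESeq2 size factors and 1 library left out (0 to 1 higher and 0 to 1 lower without a library). Choroid plexus markers called higher numbered 0 with the 50-count filter and filtered limma, and progenitor markers 0 to 1 without a library. The groups share replicate numbers, but the labels do not say whether these mark pairs. With 2 pairs, a correlation of deviations of 0.13 cannot settle this. With the replicate block 5 alpha and 8 beta genes were higher and 14 gamma genes lower. Sums of counts and effective isoform numbers moved by less than the spread between replicates with library totals, sums of FPKM and filtered members alone; without a library the log2 ratio of sums ranged from 0.33 to 0.91 in the alpha, 0.23 to 0.52 in the beta and −0.997 to −0.79 in the gamma cluster. Depth limits the alpha cluster most, with 281 to 609 counts in all.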
